A study of Mus musculus with 12 samples.

Results

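Imprinted genes, which are transcribed mainly from the copy inherited from 1 parent, were followed by cluster and by expressed allele in Tet1kd, Tet2kd and parental mouse embryonic stem cells. The members were 51 named imprinted genes, and 46 of them, in 21 clusters, had a row in both gene tables, which hold 36521 rows. Of the 46, 20 are textbook paternally expressed and 26 are maternally expressed. Snrpn, Kcnq1ot1, Rian, Mirg and Peg13 were matched to no row and are not analysed here. All cells were of the line V6.5, grown with leukaemia inhibitory factor (LIF). The Tet1kd and Tet2kd cells had been electroporated with the vector pSUPER-puro carrying a short hairpin RNA against Tet1 or Tet2, selected with puromycin on SNL76/7-4 feeder cells and picked as single clones; the sources used here do not give the number of clones behind the libraries. The parental cells carried no knockdown, and no group with a control hairpin or empty vector was used here, so effects of the hairpin, of selection and of cloning cannot be told apart. There were 4 libraries of poly(A) RNA in each group. The labels call them biological replicates and do not say whether they were separate cultures, so p-values measure the spread between these libraries.

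At an imprinted cluster a differentially methylated region keeps DNA methylation on 1 parental copy. That mark is set in the germ line and then protected in early embryos and embryonic stem cells by zinc finger proteins such as ZFP57 with TRIM28. TET1 and TET2 oxidize 5-methylcytosine to 5-hydroxymethylcytosine, a step in the removal of methylation. Many paternally expressed genes promote growth and many maternally expressed genes restrain it. The RNA was not separated by allele, so the expressed allele stands here as textbook background and no loss or gain of imprinting was measured. In such bulk RNA, fewer cells that express a gene and less RNA per cell cannot be told apart.

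Promoter windows of 4 members whose RNA changed are shown because the values below turn on these genes, and because the Peg3 window overlaps that of Usp29. Each runs from 250 bases before to 50 after the start site in RefSeq (GRCm38.p6), 5′ to 3′ on the gene's strand, with every CpG in capitals.
Plagl1 (chr10:13090582-13090881, + strand): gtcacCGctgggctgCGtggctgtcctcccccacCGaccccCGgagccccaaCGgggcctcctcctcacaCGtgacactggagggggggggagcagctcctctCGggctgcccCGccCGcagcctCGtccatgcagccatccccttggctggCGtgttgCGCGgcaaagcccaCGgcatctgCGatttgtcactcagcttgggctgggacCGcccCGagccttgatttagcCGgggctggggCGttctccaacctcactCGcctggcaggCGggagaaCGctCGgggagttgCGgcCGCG
Peg3 (chr7:6730370-6730669, - strand): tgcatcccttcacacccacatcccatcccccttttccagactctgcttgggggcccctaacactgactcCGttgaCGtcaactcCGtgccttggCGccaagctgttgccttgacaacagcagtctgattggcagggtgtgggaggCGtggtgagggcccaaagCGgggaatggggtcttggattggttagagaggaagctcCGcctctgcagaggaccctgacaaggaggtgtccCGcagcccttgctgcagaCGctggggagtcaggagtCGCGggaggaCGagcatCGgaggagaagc
Mest (chr6:30737800-30738099, + strand): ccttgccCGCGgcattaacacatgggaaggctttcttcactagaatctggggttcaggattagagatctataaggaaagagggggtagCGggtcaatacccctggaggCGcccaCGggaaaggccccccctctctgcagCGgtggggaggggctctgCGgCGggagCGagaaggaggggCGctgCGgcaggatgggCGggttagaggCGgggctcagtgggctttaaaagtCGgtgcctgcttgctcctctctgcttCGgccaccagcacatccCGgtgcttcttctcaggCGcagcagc
Grb10 (chr11:12037371-12037670, - strand): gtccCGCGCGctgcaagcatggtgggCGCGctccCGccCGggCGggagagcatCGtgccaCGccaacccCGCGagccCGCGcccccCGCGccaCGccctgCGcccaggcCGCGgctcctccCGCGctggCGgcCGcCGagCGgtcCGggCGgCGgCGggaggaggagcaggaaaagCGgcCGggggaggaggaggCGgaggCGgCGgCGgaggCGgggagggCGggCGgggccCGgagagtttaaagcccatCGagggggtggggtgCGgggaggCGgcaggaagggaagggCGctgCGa
The Plagl1 window holds 26 CpGs, the Peg3 window 13, the Mest window 17 and the Grb10 window 45. The windows of Peg3 and Usp29, which run in opposite directions, share 263 bases. RefSeq windows were matched for 38 of the 46 members, with 56 windows that held 1 to 48 CpGs and a median of 16, against a median of 7 in all 32851 windows. The hexamer TGCCGC, the core of the ZFP57 motif, was searched on both strands (GCGGCA on the other). It was found in 12 windows of 11 members, which is 21.4% of member windows, against 11.6% of all windows. Mest counts more than once here, through overlapping windows. The hexamer itself holds a CpG, and the member windows and all windows were not matched for CpG content. The hexamer occurs in the Plagl1, Mest and Grb10 windows above and not in the Peg3 window. A further window of Mest and a further window of Grb10, not shown, do not hold it. A match describes the letters of a window and is not a measured site.

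The targeted genes were lower in their own knockdown. Tet1 was at 25.2% of parental in Tet1kd and Tet2 was at 50.9% of parental in Tet2kd, in the authors' deposited tables. The other TET genes there were at 117.8% (Tet2) and 177.2% (Tet3) of parental in Tet1kd. In Tet2kd they were at 116.5% (Tet1) and 105.1% (Tet3). Total reads were estimated at 15.8 to 39.7 M in Tet1kd, 14.4 to 31.1 M in Tet2kd and 14.6 to 31.6 M in parental libraries. Normalized read counts per library, given below on 1 scale for all 3 groups, were recovered from the deposited group means; the 4 libraries of a group are listed from the largest to the smallest size factor. Of 33 feeder fibroblast markers, 22 were lower and 2 higher in Tet1kd (72.7% called) in the authors' deposited tables. In Tet2kd 4 were lower and 8 higher there (36.4% called). Of all genes with a mean of at least 100, 49.6% were called in Tet1kd and 12.7% in Tet2kd. The summed means of the 33 were at 77.6% of parental in Tet1kd and 108.5% in Tet2kd in the authors' deposited tables. Without Sparc, which was not recovered, the libraries held 21270 to 22560 in Tet1kd, 28030 to 29900 in Tet2kd and 26480 to 28250 normalized counts in parental cells. No marker had a group mean of 0, which does not exclude a count of 0 in single libraries. Several imprinted genes, Dcn among them, are also expressed by fibroblasts, and the part of feeder RNA in the results below was not tested.

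In Tet1kd cells many imprinted genes changed, most of them downwards. Of the 46 members, 20 fell, 8 rose and 18 did not pass an adjusted p of 0.05 in the authors' deposited table, by the first of its 2 tests, which is meant below where no other test is named. Of all genes tested, 30.4% were called, 15.3% lower and 15.2% higher, and among genes with a mean of at least 100 it was 49.6%. Of the 34 members with a mean of at least 100 in the authors' deposited table, 17 fell and 6 rose (67.6% called), where 24.2% of such genes were called lower and 25.5% higher. The median log2 fold change of the members was -0.34, against -0.03 over all genes tested. Among the 20 paternally expressed members 12 fell and 1 rose, with a median of -0.64. Among the 26 maternally expressed members 8 fell and 7 rose, with a median of -0.17. In 9 of the called members the log2 fold change was at least 1 in size: Dcn, Plagl1, Usp29, Peg10, Atp10a, Peg3, Igf2 and Zim1 fell, and Calcr rose. The share of all genes called with a change of that size is not given here, so this count has no background.

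In Tet2kd cells fewer imprinted genes changed and by less. The authors' deposited table called 4 members lower (Ube3a, Dlk1, Grb10 and Phlda2) and 5 higher (Peg3, Usp29, Atp10a, Igf2 and Impact), and 37 did not pass. Of all genes tested, 7.14% were called, 3.29% lower and 3.85% higher, and of those with a mean of at least 100 it was 12.7%. Of the 34 members with a mean of at least 100, 4 fell and 4 rose in the authors' deposited table (23.5% called), where 5.91% of such genes were called lower and 6.84% higher. The members' median log2 fold change was 0.05, against -0.01 over all genes tested. The paternally expressed members numbered 4 higher and 1 lower of 20 (median 0.11), and the maternally expressed 1 higher and 3 lower of 26 (median -0.03). No member reached a log2 fold change of 1 with a call, and the share of all genes that did is not given here.

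**Figure D1:**
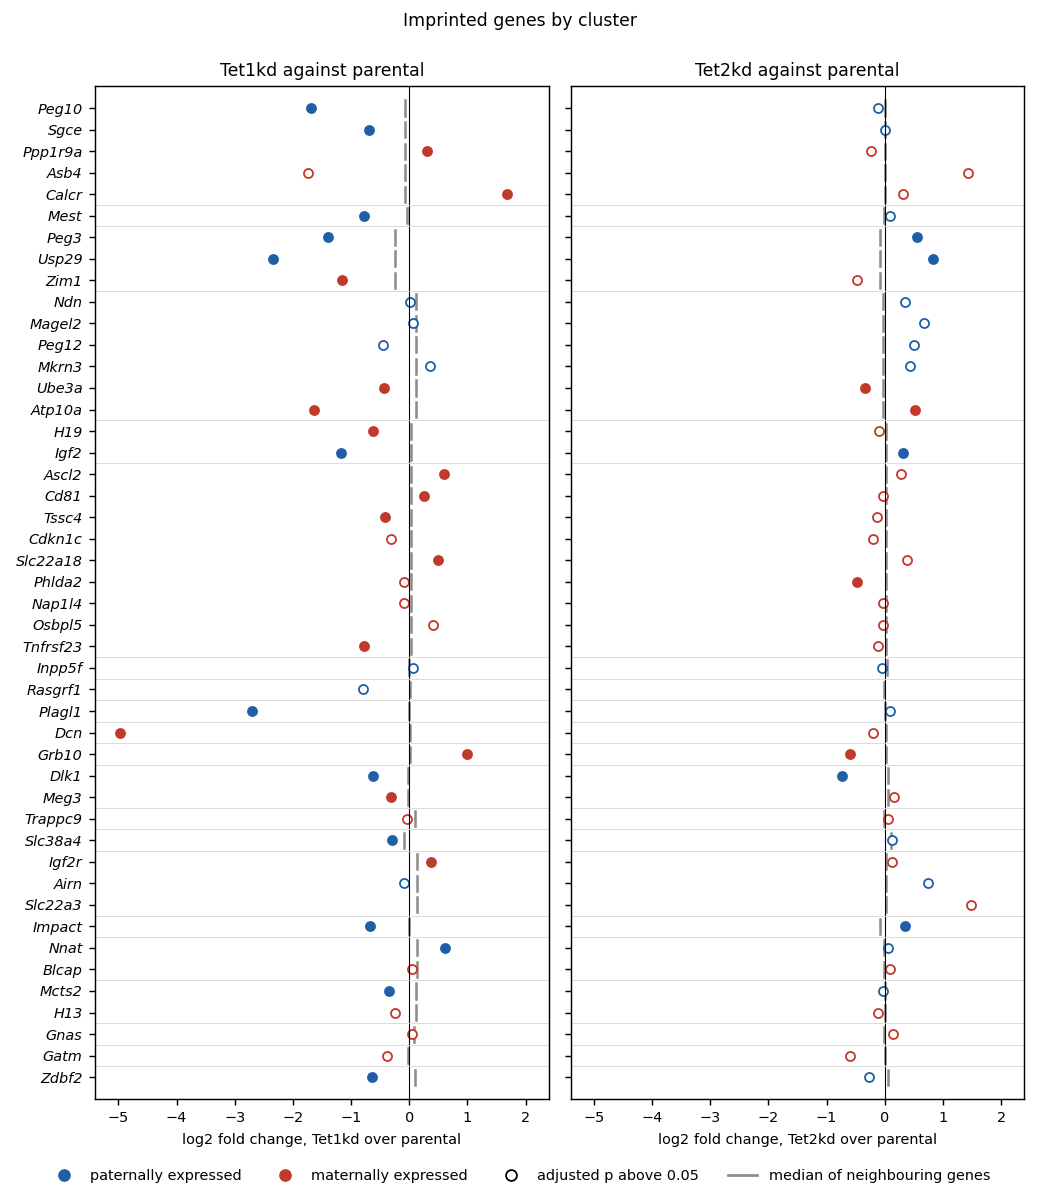
Log2 fold change of the imprinted genes in the authors' deposited tables, Tet1kd over parental (left panel) and Tet2kd over parental (right panel), with genes grouped by cluster between the thin lines. Filled points passed an adjusted p of 0.05, open points did not, colours give the expressed allele, and grey ticks the median of neighbouring genes; Slc22a3 in Tet1kd and Rasgrf1 in Tet2kd are listed at 0 and have no point. The points spread further to the left in Tet1kd, where 20 members fell, than in Tet2kd, where 4 fell.

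Both comparisons use the same 4 parental libraries, so the knockdowns were also set against each other directly, with limma on the recovered counts of all 12 libraries. Of 39 members that could be tested, 18 were lower and 5 higher in Tet1kd than in Tet2kd, and 16 did not pass. Over all genes 51.3% passed, 25.5% lower and 25.9% higher in Tet1kd. The 5 genes that fell in Tet1kd and rose in Tet2kd in the authors' deposited tables were Peg3, Usp29, Atp10a, Igf2 and Impact. Each of these 5 was lower in Tet1kd than in Tet2kd, with log2 differences from -1.03 (Impact) to -3.12 (Usp29). That direction follows from how the 5 were picked, on the same libraries, and only the sizes are added here. Only Grb10 rose in Tet1kd and fell in Tet2kd in the authors' deposited tables. Its Tet1kd reads could not be recovered, so its difference between the knockdowns was not tested. Ube3a and Dlk1 fell in both, and they did not pass between the knockdowns.

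**Figure D2:**
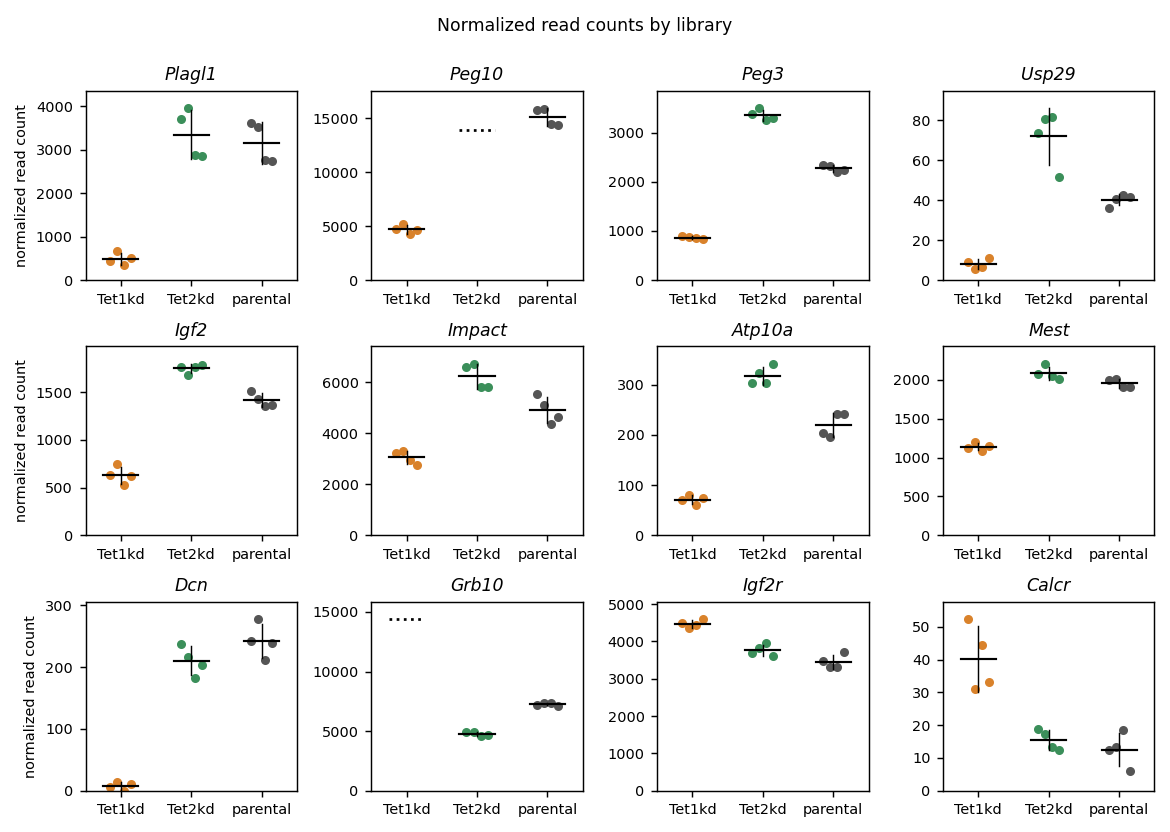
Normalized read counts of 12 members in each library of Tet1kd, Tet2kd and parental cells, on linear axes that start at 0. Points are libraries, solid lines are means, vertical bars are the SD over 4 libraries, and a dotted line is the authors' deposited mean, put on the same scale, where libraries were not recovered. For Peg3 the Tet1kd libraries lie between 837 and 899, the Tet2kd libraries between 3248 and 3492, and the parental libraries between 2205 and 2331.

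The libraries themselves separated for many members. Among 40 members with recovered reads and a mean of at least 10, all Tet1kd libraries lay below all parental libraries for 22 and above them for 6, which is 70.0% without overlap against 49.1% of all such genes. For Tet2kd it was 7 below and 10 above of 42 members, or 40.5% against 23.3%. Between the knockdowns it was 18 below and 7 above in Tet1kd of 39 members, or 64.1% against 45.0%. In every group 2 libraries were deeper and 2 shallower. All 26 called members with recovered reads in Tet1kd, and all 9 in Tet2kd, had the same direction within the deeper and within the shallower libraries. These members were called on the same libraries, so such agreement is largely built in and is no separate support for the calls. By limma on the recovered counts 29 members were called in Tet1kd (55.0% of all genes) and 13 in Tet2kd (19.6% of all genes).

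Plagl1, a paternally expressed zinc finger transcription factor, is alone in its cluster and was the paternally expressed gene with the largest fall in Tet1kd. The 4 Tet1kd libraries held 444, 659, 337 and 501 normalized counts, the Tet2kd libraries 3704, 3953, 2875 and 2867, and the parental libraries 3617, 3532, 2762 and 2731. Tet1kd libraries lay below all others, and in Tet2kd and parental cells the first 2, deeper libraries were higher than the last 2. The authors' deposited tables gave log2 fold changes of -2.70 in Tet1kd (adjusted p = 3.07e-32) and 0.08 in Tet2kd (adjusted p = 0.967). Tet1kd was lower than Tet2kd by limma, at -2.81 ± 0.17 on the log2 scale (SE, adjusted p = 2.11e-09). The 50 nearest tested genes had a median of -0.01 in Tet1kd.

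In the Peg3 cluster all 3 members with a row fell in Tet1kd. Peg3 encodes a zinc finger protein and Usp29 a ubiquitin-specific peptidase, both paternally expressed, and Zim1 is a maternally expressed zinc finger gene. Peg3 held 899, 877, 851 and 837 normalized counts in Tet1kd, 3370, 3492, 3248 and 3292 in Tet2kd, and 2331, 2321, 2205 and 2229 in parental libraries. The 3 groups did not overlap, with Tet1kd lowest and Tet2kd highest. The authors' deposited tables gave -1.39 in Tet1kd (adjusted p = 3.19e-47) and 0.56 in Tet2kd (adjusted p = 5.99e-09). Tet1kd and Tet2kd differed by -1.95 ± 0.05 (limma log2 difference, SE, adjusted p = 2.11e-13).

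Usp29, which shares its promoter region with Peg3 in the windows above, had the same order of groups. It held 8.83, 5.55, 6.34 and 11 normalized counts in Tet1kd, 73.8, 80.7, 81.5 and 51.4 in Tet2kd, and 36.3, 40.7, 42.5 and 41.7 in parental libraries. The 3 groups were again separate. The authors' deposited tables gave -2.34 for Tet1kd (adjusted p = 1.23e-07) and 0.83 for Tet2kd (adjusted p = 0.013). By limma the Tet2kd call was lost when any of the 4 parental libraries, or any Tet2kd library but the last, was left out, with an adjusted p of 0.0584 to 0.0904. Zim1 held 21.5, 19, 17.7 and 11 normalized counts in Tet1kd, 23.9, 33.0, 22.2 and 31.2 in Tet2kd, and 36.3, 39.9, 39.7 and 38.6 in parental libraries. All Tet1kd and all Tet2kd libraries lay below the parental ones. In the authors' deposited tables Zim1 passed in Tet1kd (-1.16, adjusted p = 0.0117) and did not in Tet2kd (-0.49, adjusted p = 0.524). Around this cluster, neighbouring genes also leaned lower in Tet1kd. Of 50 neighbours in gene order, 22 were lower and 5 higher in the authors' deposited table, with a median of -0.25, and in Tet2kd none was lower and 3 were higher, with a median of -0.08.

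In the Peg10-Sgce cluster the paternally expressed genes fell in Tet1kd while 2 maternally expressed genes rose. Peg10, a retrotransposon-derived gene needed for the placenta, held 4739, 5196, 4236 and 4663 normalized counts in Tet1kd and 15802, 15837, 14450 and 14387 in parental libraries. No Tet1kd library came near the parental range. The authors' deposited table gave a log2 fold change of -1.68 (adjusted p = 3e-86). Peg10 reads of the Tet2kd libraries could not be recovered; the authors' deposited table gave means of 12781 in Tet2kd and 13882 in parental cells (-0.12, adjusted p = 0.464). Sgce, which encodes epsilon-sarcoglycan and starts beside Peg10, held 65.1 to 96.6 normalized counts in Tet1kd, 113 to 132 in Tet2kd and 110 to 140 in parental libraries, with no overlap of Tet1kd with the others. It fell in Tet1kd (-0.70, adjusted p = 0.000483) and was at 0.01 in Tet2kd (adjusted p = 1) in the authors' deposited tables.

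Calcr, the calcitonin receptor gene, was the only member with a rise above 1 on the log2 scale in Tet1kd. It held 52.4, 30.9, 44.3 and 33.1 normalized counts in Tet1kd, 18.8, 17.4, 13.3 and 12.5 in Tet2kd, and 12.3, 13.3, 18.4 and 6.18 in parental libraries. The Tet1kd libraries lay above all others, and Tet2kd and parental libraries overlapped. The authors' deposited tables gave 1.68 in Tet1kd (adjusted p = 3.53e-05) and 0.30 in Tet2kd (adjusted p = 0.892), and limma gave 1.33 ± 0.33 between the knockdowns (SE, adjusted p = 0.00325). Ppp1r9a, which encodes the actin-binding scaffold neurabin, rose by less in Tet1kd (0.31, adjusted p = 0.00809) in the authors' deposited table. In Tet2kd its value there was -0.25 (adjusted p = 0.167), and it was higher in Tet1kd than in Tet2kd by limma (0.56 ± 0.07, SE, adjusted p = 1.29e-05). Asb4, an ankyrin repeat gene, had 10 reads in the Tet1kd, 61 in the Tet2kd and 25 in the parental libraries together and passed in neither comparison. The 32 neighbours tested in Tet1kd had a median of -0.08, with 7 lower and 6 higher in the authors' deposited table.

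Mest, on the same chromosome and in a cluster of its own, encodes a protein of the alpha/beta hydrolase fold and is paternally expressed. It held 1128, 1196, 1088 and 1142 normalized counts in Tet1kd, 2070, 2205, 2041 and 2005 in Tet2kd, and 1992, 2002, 1902 and 1910 in parental libraries. The Tet1kd libraries were far below both other groups, and all Tet2kd libraries were above all parental ones by a small margin. It fell in Tet1kd (-0.78, adjusted p = 7.03e-16) and did not pass in Tet2kd (0.09, adjusted p = 0.726) in the authors' deposited tables.

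The H19-Igf2 cluster pairs a paternally expressed growth factor with a maternally expressed noncoding RNA, and both fell in Tet1kd. Igf2 held 628, 749, 530 and 618 normalized counts in Tet1kd, 1767, 1681, 1769 and 1788 in Tet2kd, and 1514, 1433, 1358 and 1368 in parental libraries. The 3 groups did not overlap. The authors' deposited tables gave -1.17 in Tet1kd (adjusted p = 4.96e-30) and 0.30 in Tet2kd (adjusted p = 0.0261), and limma gave -1.48 ± 0.08 between the knockdowns (SE, adjusted p = 1.14e-09). H19, in a row joined with a second gene ID, held 333, 340, 338 and 407 normalized counts in Tet1kd, 414, 513, 574 and 552 in Tet2kd, and 563, 518, 528 and 584 in parental libraries. Its Tet1kd libraries lay below all others, though the highest of them, 407, was close to the lowest Tet2kd library. H19 fell in the authors' deposited tables in Tet1kd (-0.63, adjusted p = 2.68e-07) and did not pass in Tet2kd (-0.09, adjusted p = 0.603).

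Genes that restrain this growth factor's pathway were measured elsewhere in the set. Igf2r, the maternally expressed receptor that clears IGF2 from the cell surface, held 4487, 4353, 4454 and 4603 normalized counts in Tet1kd, 3682, 3814, 3949 and 3615 in Tet2kd, and 3481, 3324, 3315 and 3712 in parental libraries. The Tet1kd libraries were above all others, and Tet2kd overlapped parental. Igf2r rose in the authors' deposited tables in Tet1kd (0.37, adjusted p = 6.54e-05) and did not pass in Tet2kd (0.12, adjusted p = 0.469). Its overlapping antisense RNA Airn had 23 reads in Tet1kd, 32 in Tet2kd and 19 in parental libraries together, and the transporter gene Slc22a3 had 0 in Tet1kd, 8 in Tet2kd and 3 in parental libraries; a count of 0 allows up to 3 reads. Neither passed a test of the gene as a whole.

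Grb10, the maternally expressed adaptor that dampens insulin and IGF receptor signalling, rose in Tet1kd and fell in Tet2kd. Its means in the authors' deposited tables were 14409 in Tet1kd against 7265 in parental cells, and 4392 in Tet2kd against 6672 in parental cells on the other table's scale. The recovered Tet2kd libraries held 4924, 4898, 4597 and 4711 normalized counts and the parental libraries 7231, 7334, 7356 and 7141. All Tet2kd libraries lay below the parental ones. The authors' deposited tables gave 0.99 in Tet1kd (adjusted p = 1.24e-31) and -0.60 in Tet2kd (adjusted p = 5.02e-11). The 50 neighbours of Grb10 had a median of 0.01 in both comparisons.

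In the Snrpn-Ube3a cluster the maternally expressed genes changed and the paternally expressed genes did not pass the authors' first test against parental. Atp10a, which encodes a phospholipid-flipping ATPase, held 70.1, 80.1, 59.6 and 74.5 normalized counts in Tet1kd, 303, 322, 302 and 341 in Tet2kd, and 204, 195, 241 and 241 in parental libraries. The 3 groups were separate, with Tet1kd lowest and Tet2kd highest. The authors' deposited tables gave -1.63 in Tet1kd (adjusted p = 6.7e-18) and 0.53 in Tet2kd (adjusted p = 0.00144), and limma gave -2.16 ± 0.12 between the knockdowns (SE, adjusted p = 7.68e-10). Ube3a, a ubiquitin ligase whose imprinting is known from neurons, held 2830, 2291, 2462 and 2188 normalized counts in Tet1kd, 2592, 2889, 2510 and 2440 in Tet2kd, and 3445, 3387, 3215 and 3221 in parental libraries. Both knockdowns lay below parental and overlapped each other. The authors' deposited tables gave -0.44 in Tet1kd (adjusted p = 1.31e-05) and -0.35 in Tet2kd (adjusted p = 0.00145).

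The paternally expressed members of that cluster are Ndn and Magel2 of the MAGE family, the makorin gene Mkrn3 and Peg12. In the authors' deposited tables they ranged on the log2 scale from -0.46 (Peg12) to 0.36 (Mkrn3) in Tet1kd and from 0.34 (Ndn) to 0.67 (Magel2) in Tet2kd, none with a call by the authors' first test. Between the knockdowns, limma placed Peg12 lower in Tet1kd (-0.97 ± 0.15, SE, adjusted p = 5.01e-05) and Ndn lower too (-0.32 ± 0.12, SE, adjusted p = 0.0316). Peg12 held 46.9, 61.8, 55.7 and 73.1 normalized counts in Tet1kd, 124, 114, 111 and 112 in Tet2kd, and 83.5, 77.5, 87.8 and 77.2 in parental libraries. These 3 groups do not overlap. Against parental Peg12 passed in neither comparison by the authors' first test, while limma gave an adjusted p of 0.0128 in Tet1kd and 0.0262 in Tet2kd.

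The Kcnq1ot1 cluster had 9 maternally expressed members with a row. Of these, 3 rose and 2 fell in Tet1kd (55.6% called) and 1 fell in Tet2kd (11.1% called) in the authors' deposited tables. Among genes with a mean of at least 100, 49.6% were called in Tet1kd and 12.7% in Tet2kd. Over all genes tested it was 30.4% and 7.14%. With only 9 members, these shares do not set the cluster apart from genes in general. Cd81, a tetraspanin and the member with the highest mean count there, had means of 7350 in Tet1kd and 6157 in parental cells in the authors' deposited table (0.25, adjusted p = 0.0151). Its Tet1kd reads were not recovered; the Tet2kd libraries held 5880, 5882, 6049 and 6314 normalized counts and the parental libraries 5911, 6318, 6187 and 6211, which overlap. Ascl2, a trophoblast transcription factor (0.60, adjusted p = 0.0444), and the transporter gene Slc22a18 (0.49, adjusted p = 0.015) also rose in Tet1kd in the authors' deposited table. Tssc4 (-0.42, adjusted p = 0.000288) and the decoy receptor gene Tnfrsf23 (-0.77, adjusted p = 0.0325) fell there. Cdkn1c, a cyclin-dependent kinase inhibitor, held 179 to 201 normalized counts in Tet1kd, 202 to 221 in Tet2kd and 231 to 253 in parental libraries. Its 3 groups did not overlap. The first test in the authors' deposited tables called it in neither comparison (-0.31, adjusted p = 0.149, in Tet1kd and -0.21, adjusted p = 0.592, in Tet2kd). In Tet1kd the second test in the authors' deposited table gave an adjusted p of 0.0461, and limma gave 0.00656. The histone chaperone gene Nap1l4 and Osbpl5 also passed in neither.

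Phlda2, which restrains placental growth, was the only member called in Tet2kd alone in the authors' deposited tables. It held 2154, 2304, 2063 and 2310 normalized counts in Tet1kd, 1710, 1571, 1614 and 1860 in Tet2kd, and 2226, 2455, 2452 and 2251 in parental libraries. All Tet2kd libraries were below both other groups. The authors' deposited tables gave -0.09 in Tet1kd (adjusted p = 0.572) and -0.47 in Tet2kd (adjusted p = 3.06e-06), and limma gave 0.39 ± 0.06 for Tet1kd over Tet2kd (SE, adjusted p = 9.57e-05).

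In the Dlk1-Meg3 cluster both members with a row fell in Tet1kd. Meg3, a maternally expressed noncoding RNA counted in a row of 3 joined gene IDs, held 3726, 3549, 3643 and 3695 normalized counts in Tet1kd, 5204, 5067, 5079 and 5099 in Tet2kd, and 4535, 4602, 4562 and 4552 in parental libraries. The 3 groups were tight and separate. The authors' deposited tables called the fall in Tet1kd (-0.32, adjusted p = 0.000926) and not the higher level in Tet2kd (0.16, adjusted p = 0.238), and limma gave -0.48 ± 0.04 between the knockdowns (SE, adjusted p = 2.32e-08). Dlk1, a paternally expressed membrane protein related to Notch ligands, held 119, 86.4, 163 and 115 normalized counts in Tet1kd, 125, 76.2, 111 and 136 in Tet2kd, and 190, 152, 167 and 236 in parental libraries. Tet1kd overlapped parental, and Tet2kd lay below it. The authors' deposited tables gave -0.63 in Tet1kd (adjusted p = 0.0343) and -0.73 in Tet2kd (adjusted p = 0.0288). By limma each of these calls was lost without the second library of that knockdown (adjusted p = 0.0607 in Tet1kd and 0.0597 in Tet2kd) or without the last parental library (adjusted p = 0.0587 and 0.0673).

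Impact, a paternally expressed inhibitor of GCN2 activation, held 3214, 3320, 2961 and 2744 normalized counts in Tet1kd, 6603, 6706, 5826 and 5804 in Tet2kd, and 5529, 5100, 4363 and 4647 in parental libraries. The 3 groups did not overlap. The authors' deposited tables gave -0.68 in Tet1kd (adjusted p = 5.24e-09) and 0.34 in Tet2kd (adjusted p = 0.00998), and limma gave -1.03 ± 0.08 between the knockdowns (SE, adjusted p = 2.91e-08).

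Dcn, a matrix proteoglycan imprinted in mouse placenta and abundant in fibroblasts, held 5.52, 14.3, 0 and 11 normalized counts in Tet1kd, 238, 217, 182 and 204 in Tet2kd, and 243, 278, 211 and 239 in parental libraries. It was near 0 in all Tet1kd libraries. The authors' deposited tables gave -4.98 in Tet1kd (adjusted p = 1.4e-89) and -0.21 in Tet2kd (adjusted p = 0.575). Of all genes with a mean of at least 100, 24.2% were called lower and 25.5% higher in Tet1kd in the authors' deposited table. Of the 33 feeder fibroblast markers, 22 were lower and 2 higher in Tet1kd and 9 did not pass, in the authors' deposited table. Among those lower were Mmp3 (-3.41), Acta2 (-1.72) and Col3a1 (-1.20), on the log2 scale. The 2 higher were Col5a1 (0.41) and Mmp2 (0.35). Lum and Fap were near 0 in Tet1kd in the authors' deposited table, Lum with means of 0.414 in Tet1kd and 18.6 in parental cells and Fap with 0.276 in Tet1kd and 12.7 in parental cells. In Tet2kd, where Dcn did not pass, Acta2 rose (0.64) and Col3a1 fell (-0.56) in the authors' deposited table. The summed feeder markers in the Tet1kd libraries, at most 22560, lay below those of the parental libraries, at least 26480, and their part in the fall of Dcn was not tested.

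The other single-gene clusters and small clusters changed by less. Zdbf2, a paternally expressed zinc finger gene, held 3904, 3847, 3323 and 3319 normalized counts in Tet1kd, 5126, 5024, 4259 and 4353 in Tet2kd, and 6065, 6177, 5130 and 5166 in parental libraries. The 3 groups did not overlap, and the highest Tet2kd library, 5126, lay just under the lowest parental one, 5130. The authors' deposited tables gave -0.65 in Tet1kd (adjusted p = 2.03e-08) and -0.26 in Tet2kd (adjusted p = 0.116). The amino acid transporter gene Slc38a4 held 5291 to 6309 normalized counts in Tet1kd, 7165 to 8402 in Tet2kd and 6769 to 7479 in parental libraries. Tet1kd lay below both other groups, which overlapped. Slc38a4 fell in Tet1kd (-0.29, adjusted p = 0.00303) and did not pass in Tet2kd (0.12, adjusted p = 0.449) in the authors' deposited tables.

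Nnat, which lies in an intron of Blcap, was the only paternally expressed member that rose in Tet1kd in the authors' deposited table (0.61, adjusted p = 0.000431). It held 218, 231, 251 and 225 normalized counts in Tet1kd, 170, 127, 153 and 178 in Tet2kd, and 158, 136, 160 and 153 in parental libraries. Its Tet1kd libraries were above all others. Blcap itself held 590, 481, 533 and 447 normalized counts in Tet1kd, 566, 517, 513 and 528 in Tet2kd, and 519, 496, 497 and 480 in parental libraries, and passed in neither comparison of the authors' deposited tables (0.04, adjusted p = 0.791, and 0.09, adjusted p = 0.814). Tet1kd spanned the other groups.

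Mcts2, a retrogene inside an intron of H13, fell in Tet1kd (-0.35, adjusted p = 0.00723) and was at -0.02 in Tet2kd (adjusted p = 1) in the authors' deposited tables; its reads may be shared with its parent gene Mcts1, so its level is uncertain. H13, a signal peptide peptidase gene, held 935, 984, 967 and 988 normalized counts in Tet1kd, 1041, 982, 1075 and 1147 in Tet2kd, and 1123, 1040, 1197 and 1226 in parental libraries. Its Tet1kd libraries lay below the parental ones, but it missed the threshold in the first test of the authors' deposited table (-0.24, adjusted p = 0.0654) and passed in its second (adjusted p = 0.000692). The sources used here do not say whether counting used strand. Reads of the overlapping pairs Nnat and Blcap, Airn and Igf2r, and Peg3 and Usp29, on opposite strands, may thus not be fully separated. Mcts2 and H13 lie on the same strand, so their reads may not be fully separated even if strand was used.

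Trappc9 held 833, 837, 1028 and 934 normalized counts in Tet1kd, 999, 884, 930 and 1082 in Tet2kd, and 891, 774, 1016 and 1055 in parental libraries. The groups overlapped, and it passed in neither comparison. Gnas, the Gs alpha gene, held 6334 to 7349 normalized counts in Tet1kd, 6859 to 7853 in Tet2kd and 6009 to 7144 in parental libraries. The phosphatase gene Inpp5f held 364 to 383 in Tet1kd, 326 to 361 in Tet2kd and 335 to 375 in parental libraries. The creatine synthesis gene Gatm held 31.7 to 80.6 in Tet1kd, 29.6 to 57.8 in Tet2kd and 48.6 to 102 in parental libraries. Groups overlapped in all 3 genes apart from the knockdowns for Inpp5f, and none passed against parental in the first test of the authors' deposited tables; in the second Gnas passed in Tet2kd (0.14, adjusted p = 0.000123). Rasgrf1, a Ras exchange factor gene, had 3 reads in Tet1kd, 0 in Tet2kd and 4 in parental libraries together.

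**Figure D3:**
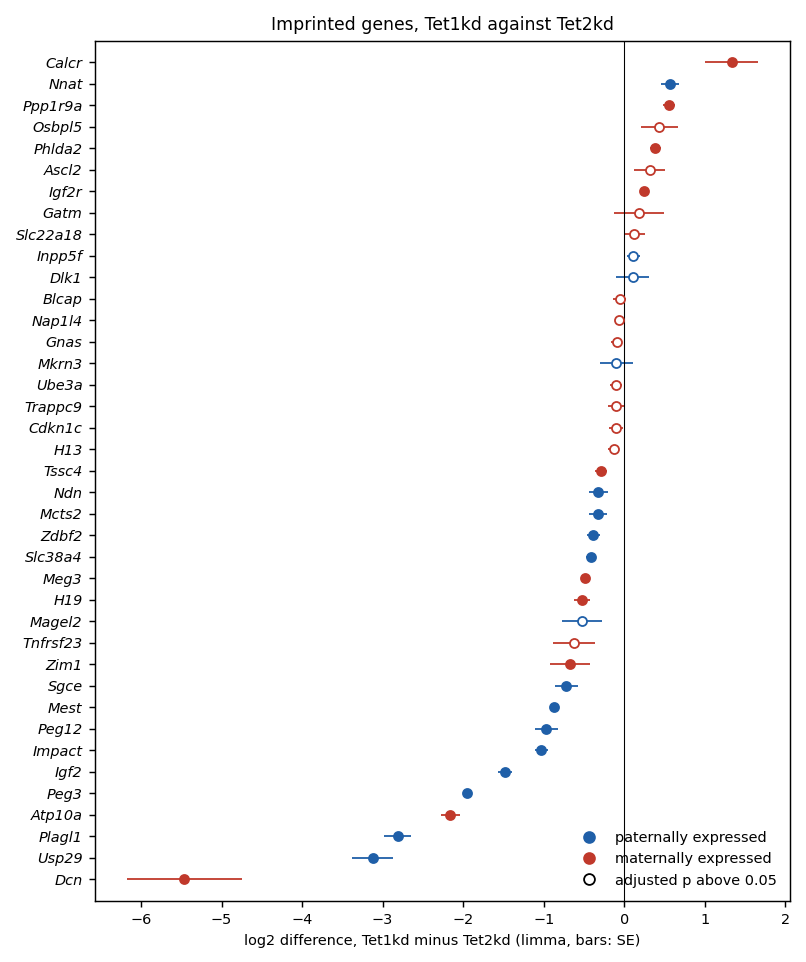
Log2 difference of Tet1kd minus Tet2kd for the 39 imprinted genes with recovered reads, from limma over 12 libraries, ordered by size, with SE as bars and colours for the expressed allele. Filled points passed an adjusted p of 0.05: 18 lie below 0, from Dcn at -5.46 to Tssc4 at -0.29, and 5 above it, up to Calcr at 1.33.

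The use of exons within these genes changed rarely. The 46 members held 905 exon bins, of which 612 were tested for Tet1kd and 614 for Tet2kd. In Tet1kd 18 bins of 10 members were called in the authors' deposited exon table, 6 less and 12 more used, or 2.94% against 2.56% of all bins. In Tet2kd 15 bins of 9 members were called in the authors' deposited exon table, 7 less and 8 more used, or 2.44% against 2.45% of all bins. Both shares were near the background. The bins have no coordinates here and are numbered as in the tables, and the sizes are log2 ratios of use as deposited, with the sign set to knockdown over parental.

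The bin with the smallest adjusted p was in Ube3a in Tet2kd, where bin 7 of 13 was less used (-0.52, adjusted p = 4.02e-06) and bin 10 more used (0.24, adjusted p = 0.0401) in the authors' deposited exon table. Phlda2, with 2 bins, used bin 1 more (0.09) and bin 2 less (-0.10) in Tet1kd, each with an adjusted p of 8.63e-05 in the authors' deposited exon table. With only 2 bins, more use of 1 goes with less use of the other, so these calls are not separate results. In Igf2r, bin 23 of 54 was less used in Tet1kd (-0.52, adjusted p = 0.000609) in the authors' deposited exon table. In H13 the last of 28 bins was less used in Tet1kd (-0.50, adjusted p = 0.0126) and bin 26 more used (0.20, adjusted p = 0.0444) in the authors' deposited exon table. Peg10, whose gene level did not pass in Tet2kd, used bins 3, 4 and 5 of 7 less (-0.37 each) and bin 6 more (0.08) there in the authors' deposited exon table. Bins 4 and 5 had the same mean, ratio and adjusted p, so they may not be separate results. The calls in Airn and in bin 7 of Trappc9 rest on bin means under 2 and their sizes are not given.

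Genes that act on imprints were measured in the same libraries. Of 35 tested regulators, 15 fell and 2 rose in Tet1kd, and 7 fell and 1 rose in Tet2kd, in the authors' deposited tables; these counts include the targeted genes. That is 48.6% called in Tet1kd and 22.9% in Tet2kd, against 49.6% and 12.7% of all genes with a mean of at least 100. The Tet1kd share in either direction was thus near the background. By direction, 24.2% of such genes were called lower and 25.5% higher in Tet1kd, while most called regulators fell. The 2 that rose in Tet1kd were Tet3 (0.83, adjusted p = 6.45e-09) and Tet2 (0.24, adjusted p = 0.0186) in the authors' deposited table. Besides Tet1, the smallest adjusted p-values in Tet1kd were for the Polycomb methyltransferase Ezh2 (-1.04), the chromatin remodeller Atrx (-1.02), Dppa3 (-1.43), which protects the maternal genome from demethylation in the zygote, the DNA methyltransferase Dnmt3a (-0.80) and Cbx3 (-1.34), in the authors' deposited table. In Tet2kd they were, besides Tet2, for Dppa3 (0.99), the methyltransferase cofactor Dnmt3l (-0.75), the imprint-protecting zinc finger gene Zfp445 (-0.49), the demethylase gene Kdm1b (-0.48) and Arid4b (-0.34) in the authors' deposited table. Zfp57 had means of 7756 in Tet1kd against 10861 in parental cells (-0.49, adjusted p = 2.47e-08) in the authors' deposited table. In Tet2kd Zfp57 was at 0.13 (adjusted p = 0.425) in the authors' deposited table.

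For a wider list of genes for which imprinting has been proposed, the shares called were 42.2% in Tet1kd and 2.27% in Tet2kd, against 30.4% and 7.14% of all genes tested. Of 45 tested in Tet1kd, 12 fell and 7 rose, with a median of -0.24, and of 44 tested in Tet2kd 1 fell and none rose, with a median of -0.08, in the authors' deposited tables. In Tet1kd the smallest adjusted p-values were for Bcl2l1 (-1.06), Jade1 (-0.76), Qpct (1.39), Pde4d (0.72), Ampd3 (0.78) and Gab1 (-0.54) in the authors' deposited table. Gab1, an adaptor of growth factor receptors, was the gene that fell in Tet2kd (-0.55, adjusted p = 4.17e-09) in the authors' deposited table.

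Markers of other cell types were read in the same tables, where 49.6% of genes with a mean of at least 100 were called in Tet1kd and 12.7% in Tet2kd. Of 19 tested trophectoderm markers 9 fell and 7 rose in Tet1kd (84.2% called), and of 18 tested 4 fell and 1 rose in Tet2kd (27.8% called), in the authors' deposited tables. Their median log2 fold change was -1.17 in Tet1kd and -0.10 in Tet2kd in the authors' deposited tables. The recovered sums of these markers were 9314 to 9965 in Tet1kd, 7511 to 8087 in Tet2kd and 7524 to 8003 normalized counts in parental libraries, with Tpbpa and Prl3d1 at 0 in all. In Tet1kd the sum was thus higher while the median marker was lower, since a sum follows the most abundant markers. Of 17 tested primitive endoderm markers 4 fell and 5 rose in Tet1kd (52.9% called) and 5 fell in Tet2kd (29.4% called) in the authors' deposited tables. Over the whole list the summed means were at 105.6% of parental in Tet1kd and 108.6% in Tet2kd in the authors' deposited tables. Sparc, with means of 5198 in Tet1kd against 7851 in parental cells, and 8419 in Tet2kd against 7210 in parental cells, made up much of these sums in the authors' deposited tables and was not recovered by library. Without it the sums were 7907 to 8760 in Tet1kd, 4352 to 4936 in Tet2kd and 4685 to 5285 normalized counts in parental libraries, with Ttr at 0 in all. Of 20 embryonic stem cell markers 4 fell and 8 rose in Tet1kd (60% called) and 2 rose in Tet2kd (10% called) in the authors' deposited tables, and the Tet2kd share was near the background. The part of these cell types in the results on imprinted genes was not tested.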

How the data were processed

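Libraries of poly(A) RNA for SOLiD sequencing were made from 4 Tet1kd, 4 Tet2kd and 4 parental samples. Per the submitters' processing notes, TopHat2 (version 2.0.0), SAMtools (version 0.1.18) and DESeq were used with the builds mm9 and NCBIM37. Per the file headers, the authors deposited for each knockdown a gene table with group means (signal: normalized count), a fold ratio and its log2, and for each of 2 tests a p-value, raw and adjusted. Per the file headers, the exon tables from DEXSeq hold bin means (signal), a log2 ratio, p-values and a dispersion score.

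The call was the authors' first adjusted p-value at 0.05, over all genes. The deposited tables give no standard error. Whole reads per library were recovered from the digits of the group means, for 21147 of 21658 Tet1kd, 20943 of 21368 Tet2kd and 21973 of 22004 parental genes with reads; 1397 Tet1kd and 717 Tet2kd genes were settled by a limit of 20% in place of 60% around the group mean, which favours a small spread. Members settled by the 20% limit were Peg10, Nap1l4 and Igf2r in Tet1kd, Cd81, Grb10 and Impact in Tet2kd, and Meg3, Slc38a4, Gnas and Zdbf2 in both. Parental reads recovered from 1 table alone were checked against those from both: under the 60% limit all 20366 and 18007 answers were right, and under the 20% limit 1 of 1161 and 1 of 2519 was wrong. Tet2kd counts were put on the scale of the Tet1kd table through the shared parental libraries. Recovered libraries have no replicate numbers and are lettered a to d by size factor; a and b, the deeper, and c and d, the shallower, form the library batch, which comes from the values and not the labels. Knockdowns were compared in limma (R 4.3.3; limma 3.58.1), on log2 of the normalized count plus 0.5, for genes whose mean reached 10; the fit was tested on simulated data. Depth sets counting error only.

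Ensembl IDs were paired with symbols by a reference table, 32897 of 37620 matching. The planned 5 Mb window around a cluster was replaced by 25 tested genes on each side in GRCm38 gene order, because no coordinates of the tables' build were used here. Members called with a log2 fold change of at least 1, and the highest member of each cluster with several members, are given in full by rule; the other members with values by library, Zfp57, the fibroblast genes and the exon bins named were chosen after their values were seen. The members and lists were chosen with earlier results of these data known. Alternatives were the authors' second test, limma, filters, scaling, the library batch as a term and leaving out each library.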

Additional observations from a re-analysis of the deposited data

Results flagged for a closer look

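Single libraries stood apart for 2 of 133 groups of 4 values examined, where chance flags about 1 in 20 groups. H19 had 407 normalized counts in library d of Tet1kd, and the other 3 libraries held 333 to 340. Rasgrf1 had 4.63 normalized counts in library d of parental cells, and the other 3 held 0 to 0.726; it had 4 reads in that group. No explanation was tested for either value.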

How the results depend on the processing

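No paired analysis was possible because the deposited columns hold group means without replicate numbers. The count of members called was 28 in Tet1kd and 30 by the authors' second test, which also called Cdkn1c and H13. In Tet2kd it was 9, against 16 by the authors' second test and 18 by limma with the library batch as a term; the cause was not tested. The authors' second test called Peg10, Ppp1r9a, Peg12, Meg3, Slc38a4, Gnas and Zdbf2 besides. Exon bins called at an adjusted p of 0.01 numbered 8 in Tet1kd and 4 in Tet2kd. Leaving out 1 library at a time by limma, 28 to 30 members were called in Tet1kd, 9 to 12 in Tet2kd and 21 to 26 between the knockdowns. The shares of all genes or bins called under these alternatives are not given here. A larger count may therefore hold for genes in general and is not a result about imprinted genes. Over the named members and all alternatives, 1320 values kept direction and side of the threshold, 53 passed it newly, 19 lost it and 20 changed sign. The sign changes were all in uncalled values when a library was left out. In Tet1kd log2 differences ran from -0.0352 to 0.0984 for Blcap and from -0.123 to 0.0261 for Trappc9. In Tet2kd they ran from -0.117 to 0.0391 for Mcts2, -0.0240 to 0.139 for Nnat, -0.00372 to 0.151 for Plagl1, -0.0441 to 0.0737 for Sgce, -0.359 to 0.0289 for Tnfrsf23 and -0.0206 to 0.128 for Trappc9. Between the knockdowns they ran from -0.127 to 0.00634 for Blcap and from -0.0701 to 0.252 for Dlk1. Calls of Mcts2 and Tnfrsf23 in Tet1kd were each lost without 1 Tet1kd library (adjusted p = 0.0535 without library c and 0.0585 without library d). Between the knockdowns the call of Zim1 was lost without library d of Tet1kd or libraries b or d of Tet2kd, and with no filter on the mean (adjusted p = 0.0779), and that of Mcts2 without library c of Tet1kd or library a of Tet2kd. Centring shifted all log2 values by under 0.01 and turned no called member.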
